A study of Mus musculus with 6 samples.

Results

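The 34 genes described here encode the enzymes and membrane proteins of the lysosome: 9 proteases, the protease inhibitor cystatin C with progranulin, 8 glycosidases, 7 proteins of lipid breakdown and transport, and 8 membrane proteins. They were taken by symbol from a fixed list and matched to the Ensembl identifiers of a count table of 51789 genes. All 34 had a row and a count, and all 34 passed the filter on low counts that left 10397 genes for testing. The members lie on 16 chromosomes.

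Messenger RNA came from neutrophils of mouse bone marrow, selected through the surface protein Ly6G, and was sequenced from Lexogen QuantSeq libraries, which read a tag near the 3′ end of polyadenylated transcripts. There were 3 libraries labelled WT (control for Snph) and 3 labelled KO (knockout for Snph, the gene of syntaphilin, which holds mitochondria on microtubules). The sources used here do not give strain, age, treatment or the deleted part of Snph. They also do not tie each sample to an animal of its own, and the spread behind every p-value may therefore be technical. Total counts ran from 7018388 to 9664381 per library. For Snph itself, the WT-labelled libraries held 0 counts and the KO-labelled ones 5, 2 and 8 counts, which goes against the labels. Whether these 3′ tags lie inside or outside the deleted part could not be checked, and the cause of the difference was not tested. Every direction below rests on the labels as they stand. The 14 neutrophil markers summed to between 288450 and 309660 CPM (counts-per-million, scaled by TMM factors) under the WT label. Under the KO label the sum was between 329432 and 351306 CPM, and no marker was at 0 in all libraries. S100a8 and S100a9 were the most abundant of the markers. The median log2 fold change of the list (KO-labelled against WT-labelled) was 0.10, and -0.01 with scaling to the total count alone.

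The lysosome is the acidic compartment in which cells digest material taken up from outside and their own worn components. Its soluble enzymes are made as precursors, tagged with mannose 6-phosphate and delivered through endosomes, while heavily glycosylated membrane proteins line its limiting membrane. Many lysosomal genes are controlled together by the transcription factor TFEB and its relatives, which bind E-box elements around the core CACGTG. In neutrophils the azurophil granules are related to lysosomes and share several of these proteins, CD63 among them.

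In the WT-labelled libraries as in the KO-labelled ones, lysosomal transcripts spanned a wide range of levels and 2 genes stood at the top. Because the libraries hold 3′ tags, a count does not grow with transcript length, and CPM values were set beside each other across genes, as levels per transcript end. Psap, the precursor of the saposins that help enzymes reach their sphingolipid substrates, had a mean of 1824 CPM over the 6 libraries, rank 34 among all genes tested. Ctsd, the aspartic protease cathepsin D, had 1132 CPM and rank 71. These 2 genes made up 37.4% of the summed level of the members, and together with Laptm5 (718 CPM), a lysosomal membrane protein of blood cells, and Cd63 (447 CPM), a tetraspanin, they made up 52.1%. Between 100 and 1000 CPM stood 15 members, among them Cst3 (428 CPM), Man2b1 (409 CPM), Grn (405 CPM) and Ctsb (325 CPM). A further 13 stood between 10 and 100 CPM, Lgmn lowest among them at 13.4 CPM. The 4 members below 10 CPM were Naglu (7.93), Glb1 (6.13), Mcoln1 (4.33) and Gla (2.32), and the highest member was 787 times the lowest.

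Promoter windows from RefSeq (GRCm38.p6, from 250 bases before to 50 bases after the annotated start) were found for 30 of the 34 members; Asah1, Ctsb, Ctsh and Npc1 were not matched. The core CACGTG, which reads the same on both strands, was in a window of 9 members (30%), against 8.09% of all 27025 genes with a window. Its extension TCACGTG, searched on both strands and therefore overlapping the core, was in a window of 8 members (26.7%), namely Ctsa, Ctsd, Gla, Glb1, Lamp1, Lgmn, Mcoln1 and Naglu, against 4.29% of all genes. Ctsl held the core alone. The members were chosen as lysosomal genes, so these shares describe the list and are no test. The windows of 3 members are shown, for the member with the lowest fold change (Lgmn), for the most abundant one that holds the extension (Ctsd), and for the one with the most copies of the core CACGTG (Lamp1). Only the 250 bases before the start are printed, 5′ to 3′ on the gene's strand, and capitals mark TCACGTG or its reverse complement CACGTGA, merged where they overlap.
Lgmn, chr12:102439093-102439342, minus strand: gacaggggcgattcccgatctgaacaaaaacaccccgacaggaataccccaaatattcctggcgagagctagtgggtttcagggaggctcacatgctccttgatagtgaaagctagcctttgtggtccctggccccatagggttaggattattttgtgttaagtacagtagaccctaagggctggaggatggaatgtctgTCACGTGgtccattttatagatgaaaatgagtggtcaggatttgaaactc
Ctsd, chr7:142387828-142388077, minus strand: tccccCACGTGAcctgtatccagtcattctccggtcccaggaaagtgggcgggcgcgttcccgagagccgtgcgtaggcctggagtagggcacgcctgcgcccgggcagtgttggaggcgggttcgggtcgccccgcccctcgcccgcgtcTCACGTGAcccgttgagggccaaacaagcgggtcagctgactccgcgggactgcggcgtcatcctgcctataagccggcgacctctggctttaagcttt
Lamp1, chr8:13158911-13159160, plus strand: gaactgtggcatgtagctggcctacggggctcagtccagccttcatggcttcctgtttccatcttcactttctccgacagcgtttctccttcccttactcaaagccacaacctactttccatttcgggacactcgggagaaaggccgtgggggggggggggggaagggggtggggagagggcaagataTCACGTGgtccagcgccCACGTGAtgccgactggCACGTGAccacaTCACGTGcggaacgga
The single match of Lgmn begins 50 bases before the start of one of its 2 annotated windows; the other holds none. Ctsd holds a core 98 bases and another 245 bases before its start. In Lamp1, the gene of the most abundant glycoprotein of the lysosomal membrane, 4 cores begin 61, 45, 28 and 15 bases before the start. A match is a sequence description only.

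**Figure D1:**
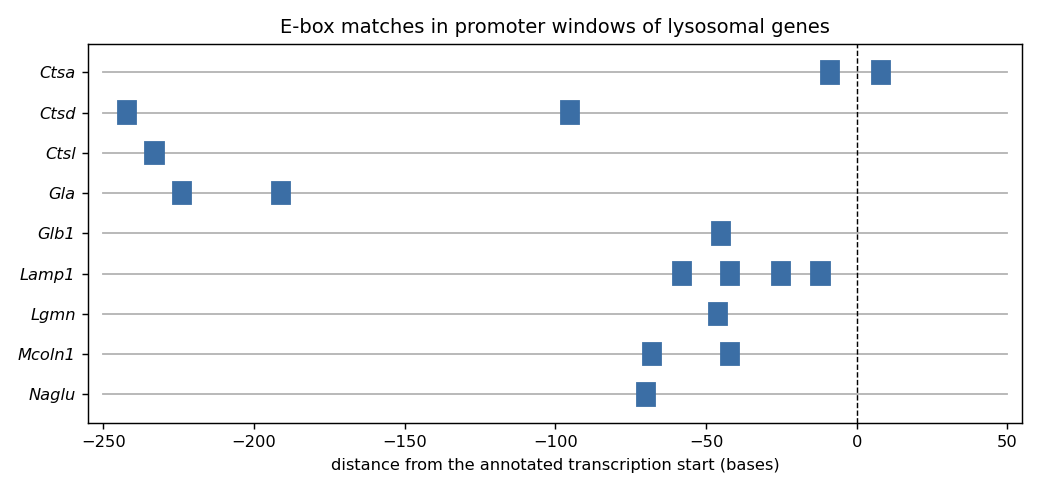
Positions of the core CACGTG in RefSeq promoter windows of the 9 lysosomal genes that hold it. The x axis is the distance in bases from the annotated transcription start (dashed line), each grey line is the window searched and each block is 1 match, with windows of the same gene drawn on 1 line. Lamp1 has 4 matches, all within 61 bases of the start.

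In the comparison of KO-labelled with WT-labelled libraries, 2 lysosomal proteases fell and the other 32 members did not pass the test (edgeR quasi-likelihood test, Benjamini-Hochberg adjustment over 10397 genes, threshold 0.05). The 2 were Lgmn, 2.79-fold lower, and Ctsb, 1.62-fold lower, 5.88% of the members. Over all genes tested, 0.789% were lower and 0.24% higher, or 1.03% in either direction. No member rose. The median log2 fold change of the 34 members was -0.07, with quartiles of -0.26 and 0.04, beside a median of 0.01 and quartiles of -0.18 and 0.14 for all genes tested. For 25 of 34 members (73.5%) the log2 fold change was below 0, as it was for 49.1% of all genes. Among the 107 genes called, 76.6% were lower, a share of 88.9% (of 162 calls) with scaling to the total count alone. With that scaling the median of the members was -0.18, that of all genes moving to -0.10. As lower passed 7 of the 34 members, beside 144 of the 10397 genes tested. Those 7 were Lgmn, Ctsb, Ctss, Ctsz, Tpp1, Lipa and Cd68.

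**Figure D2:**
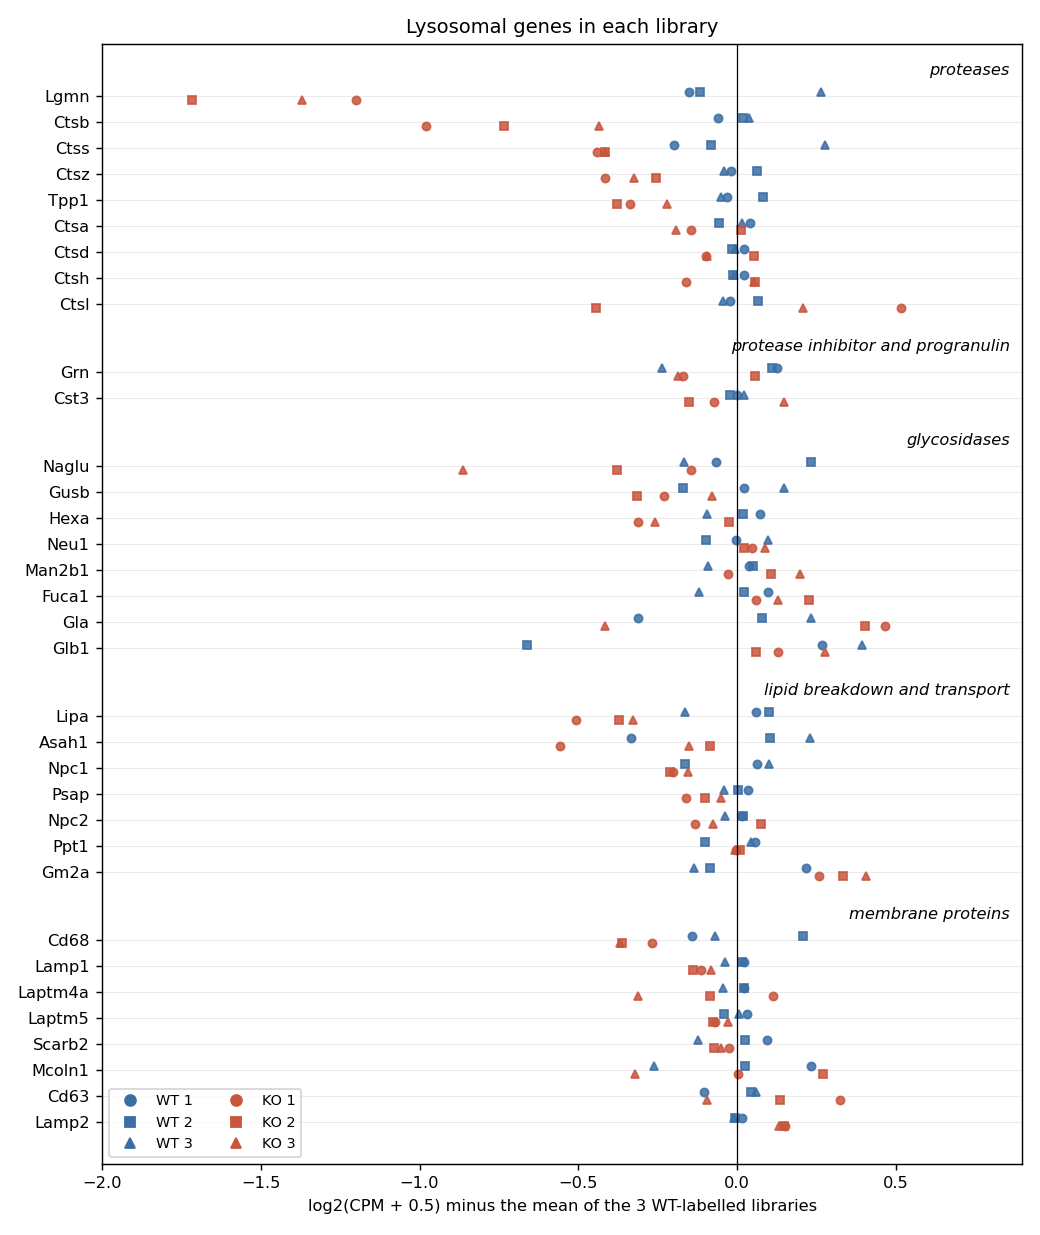
Level of each of the 34 lysosomal genes in each library, as log2(CPM + 0.5) minus the mean of the 3 WT-labelled libraries, by role. Blue points are WT-labelled and red points KO-labelled libraries, with the shape giving the replicate number. The KO-labelled points of Lgmn and Ctsb lie left of every WT-labelled point by the widest margins.

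Lgmn (ENSMUSG00000021190, chromosome 12, 102394084 to 102439813, minus strand, mm10) encodes legumain, the asparaginyl endopeptidase that also processes cathepsins into their mature chains. It was at 17.5, 18 and 23.6 CPM in WT 1, 2 and 3 and at 8.22, 5.59 and 7.25 CPM in KO 1, 2 and 3, from 143, 176 and 175 counts and 61, 38 and 65 counts. Every KO-labelled library lay below the lowest WT-labelled one, with a wide gap between the groups. The means were 19.7 ± 3.37 and 7.02 ± 1.33 CPM (SD, n = 3), a log2 fold change of -1.48 (SE 0.20, 95% interval -1.90 to -1.06, edgeR adjusted p = 0.00114). The call held in every alternative tried, and without any 1 library the log2 fold change ran from -1.60 to -1.33. Of the 8 members whose promoter window holds TCACGTG, Lgmn passed the test and the other 7 did not. The log2 fold changes of those 7 were between -0.49 (Naglu) and 0.21 (Gla). Ctsb, the other member called, had no matched window. A link between the motif and the fold changes was not tested.

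Ctsb (ENSMUSG00000021939, chromosome 14, 63122462 to 63145923, plus strand, mm10) encodes cathepsin B, a cysteine protease with both endopeptidase and peptidyl-dipeptidase activity. It was at 386, 408 and 413 CPM in WT 1, 2 and 3 and at 204, 242 and 298 CPM in KO 1, 2 and 3. The WT-labelled libraries were close together, whereas the KO-labelled ones were spread over a range in which KO 3 came nearest to the WT level. The means were 403 ± 14.3 and 248 ± 47.3 CPM (SD, n = 3), a log2 fold change of -0.70 (SE 0.11, 95% interval -0.93 to -0.46, edgeR adjusted p = 0.00493). Without KO 3 it was -0.86 and without KO 1 it was -0.58. The call ended without WT 2 (edgeR adjusted p = 0.0536, log2 fold change -0.69) and held in the other alternatives. The 3′ end of Ctsb overlaps that of Fdft1, on the opposite strand, by 774 bases (chromosome 14, 63145150 to 63145923). Exons of the 2 genes overlap there, but the number of shared exon bases was not measured. The strand setting of the counting is not given. Fdft1, the squalene synthase gene, was counted at 8.34, 15 and 9.16 CPM in WT 1, 2 and 3 and at 5.8, 12.1 and 9.26 CPM in KO 1, 2 and 3, overlapping between groups (log2 fold change -0.28, SE 0.28, edgeR adjusted p = 0.784). How reads of that stretch were divided was not tested.

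Markers of tissue macrophages, cells rich in lysosomes, were lower in the same libraries. Of 24 macrophage markers 21 were tested, 16 fell and none rose, with a median log2 fold change of -1.03, and none of the 24 was at 0 in all libraries. Their summed level was 2090, 2007 and 2107 CPM in WT 1, 2 and 3 and 1135, 1213 and 1351 CPM in KO 1, 2 and 3. Of the KO-labelled libraries KO 3 was highest in this sum and for Ctsb. KO 1 was highest for Lgmn, at 61 counts (8.22 CPM) beside 65 counts (7.25 CPM) in KO 3. These orders of the libraries were not tested. The most abundant marker, Vcam1, was at 354, 346 and 395 CPM in WT 1, 2 and 3 and at 161, 161 and 214 CPM in KO 1, 2 and 3, and Slc40a1, the iron exporter gene, did not pass (log2 fold change -0.23, edgeR adjusted p = 0.232). In fits without 1 library 14 to 16 markers were called, always lower. The part of macrophage transcripts in the values of Lgmn and Ctsb, and of the other lysosomal genes, was not tested, and in bulk RNA fewer cells of a type and less RNA per cell cannot be told apart. Of 9 tested monocyte markers none passed (median -0.33), and their summed level of 1462 to 1628 CPM in KO-labelled libraries overlapped the 1424 to 1639 CPM of WT-labelled ones. Some markers of other cell types passed the test as well. Of 6 tested megakaryocyte and platelet markers 3 fell (Ppbp, Itga2b and Pf4), with a list median of -0.96 and a summed level of 364 to 400 CPM in WT-labelled and 310 to 341 CPM in KO-labelled libraries. Of 8 tested B and plasma cell markers 2 rose (Igkc and Jchain), with a list median of -0.03. The summed level of this list was 239 to 269 CPM in WT-labelled libraries and 372, 800 and 348 CPM in KO 1, 2 and 3. No marker of it was called in the fits without WT 1, without WT 2 or without WT 3. Irf8 fell among 6 tested dendritic cell and MHC class II markers and Ccr3 among 7 of eosinophils and basophils. Of the fits without 1 library, only that without KO 3 gave a call among the eosinophil and basophil markers. None of 8 erythroid and none of 3 T and NK cell markers passed. The part of these cells in the lysosomal values was not tested either. The 2 of 14 neutrophil markers past the threshold, Retnlg and S100a8, rose.

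The other 7 proteases did not pass. Ctss, the cysteine protease cathepsin S that trims the invariant chain for antigen presentation, was at 57.4, 62.2 and 80 CPM in WT 1, 2 and 3 and at 48.4, 49.3 and 49.3 CPM in KO 1, 2 and 3. The KO-labelled values were nearly equal and below all WT-labelled ones, of which WT 3 stood apart. The log2 fold change was -0.44 (SE 0.12, 95% interval -0.69 to -0.19, edgeR adjusted p = 0.104). Ctsz, a carboxypeptidase (61.2, 64.8 and 60.2 against 46.4, 51.9 and 49.4 CPM), had a log2 fold change of -0.34 (edgeR adjusted p = 0.126). Tpp1, the tripeptidyl peptidase whose loss causes a neuronal storage disease, was at 65.6, 71 and 64.8 against 53, 51.5 and 57.6 CPM, a log2 fold change of -0.31 (edgeR adjusted p = 0.154). For both genes every KO-labelled library was below every WT-labelled one. The groups overlapped for Ctsa, the carboxypeptidase that protects the enzymes of Glb1 and Neu1, for Ctsh, an aminopeptidase, and for Ctsl, a cysteine endopeptidase, at log2 fold changes of -0.11, -0.01 and 0.15.

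Ctsd, by far the most abundant of the proteases, was at 1167, 1136 and 1143 CPM in WT 1, 2 and 3 and at 1075, 1192 and 1077 CPM in KO 1, 2 and 3. KO 2 was the highest of the 6 libraries and KO 1 the lowest. The log2 fold change was -0.04 with a 95% interval of -0.19 to 0.10 (edgeR adjusted p = 0.879). The gene model Gm49369 shares exon sequence with it on the same strand, so its counts are uncertain. The summed level of the 9 proteases was 2020 ± 14.9 CPM over the WT-labelled libraries and 1772 ± 91.5 CPM over the KO-labelled ones (SD, n = 3).

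**Figure D3:**
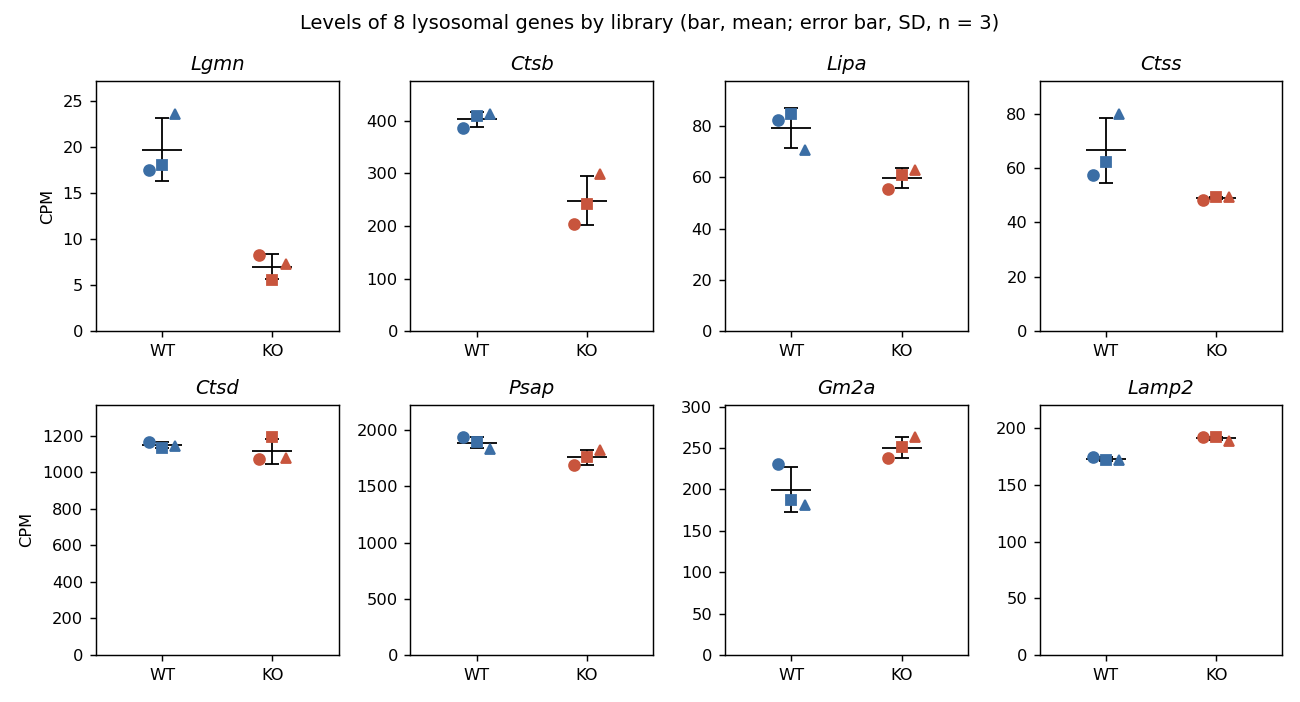
CPM of 8 lysosomal genes in the 3 WT-labelled (blue) and 3 KO-labelled (red) libraries, on axes that start at 0. Shapes give the replicate number (circle 1, square 2, triangle 3), long bars the mean and error bars the SD. Lgmn and Ctsb passed the test; Lipa, Ctss, Gm2a, Psap and Lamp2 have groups that do not overlap but did not pass, and the groups of Ctsd overlap.

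Neither Cst3 nor Grn passed the test. Cst3 encodes cystatin C, a secreted inhibitor of cysteine cathepsins and legumain, and was at 432, 424 and 438 CPM in WT 1, 2 and 3 and at 410, 388 and 478 CPM in KO 1, 2 and 3 (log2 fold change -0.02, 95% interval -0.20 to 0.16, edgeR adjusted p = 0.957). Both the lowest and the highest of these values were in KO-labelled libraries. Grn, the gene of progranulin, which is cut into granulins in the lysosome, was at 456, 451 and 354 against 371, 434 and 367 CPM (log2 fold change -0.11, edgeR adjusted p = 0.775).

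None of the 8 glycosidases, which remove sugars from glycoproteins, glycolipids and glycosaminoglycans, passed the test, and in all 8 the groups overlapped. Hexa, the alpha subunit of beta-hexosaminidase, had the smallest p of them, at 143, 138 and 128 CPM in WT 1, 2 and 3 and 110, 134 and 114 CPM in KO 1, 2 and 3 (log2 fold change -0.20, 95% interval -0.39 to 0.00, edgeR adjusted p = 0.444). Man2b1 (alpha-mannosidase) was at 396 ± 21.1 and 423 ± 32.9 CPM, Fuca1 (alpha-fucosidase) at 145 ± 10.9 and 160 ± 9.52 CPM and Neu1 (sialidase) at 131 ± 8.99 and 136 ± 3.12 CPM (WT-labelled first, SD, n = 3). Their log2 fold changes were 0.09, 0.14 and 0.05; those of Man2b1 and Neu1 were below 0 with total-count scaling. Gusb (beta-glucuronidase) was at -0.21. The 3 scarcest enzymes were the least precise, with Gla (alpha-galactosidase) at a 95% interval of -0.74 to 1.17, Glb1 (beta-galactosidase) at -0.51 to 0.74 and Naglu (which acts on heparan sulphate) at -0.49 with an SE of 0.24. For Gla and Naglu the 95% intervals include the value found for Ctsb, and a difference of that size is not excluded for them. The summed level of the glycosidases was 855 ± 29.6 CPM over the WT-labelled libraries and 878 ± 44.9 CPM over the KO-labelled ones (SD, n = 3).

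In the lipid group, no member of 7 passed, and the 2 with the smallest p lay in opposite directions. Lipa, the lysosomal acid lipase that frees cholesterol from its esters, was at 82.6, 84.9 and 70.6 CPM in WT 1, 2 and 3 and at 55.5, 61 and 62.9 CPM in KO 1, 2 and 3. All KO-labelled values were below all WT-labelled ones (log2 fold change -0.41, SE 0.10, 95% interval -0.62 to -0.20, edgeR adjusted p = 0.0677). Gm2a, the activator protein that presents GM2 ganglioside to beta-hexosaminidase, was at 231, 187 and 181 CPM in WT 1, 2 and 3 and at 238, 251 and 263 CPM in KO 1, 2 and 3. WT 1 was close to the KO-labelled libraries, and the groups did not overlap (log2 fold change 0.33, SE 0.10, 95% interval 0.12 to 0.53, edgeR adjusted p = 0.157). Lipa passed as lower with upper-quartile factors (adjusted p = 0.0452), with total-count scaling (0.0153), with no filter (0.0143), with the stricter filter (0.0361) and without WT 3 (0.0358). Gm2a passed as higher with no filter (0.0208) and with DESeq2 (0.0489).

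Psap was at 1936, 1895 and 1835 CPM in WT 1, 2 and 3 and at 1689, 1761 and 1824 CPM in KO 1, 2 and 3. The groups did not overlap, but WT 3 and KO 3 were almost equal (log2 fold change -0.10, SE 0.06, 95% interval -0.24 to 0.03, edgeR adjusted p = 0.600). Npc1 and Npc2, which together pass cholesterol out of the lysosome, were at -0.19 and -0.04. Asah1, the acid ceramidase gene, was at -0.27 (95% interval -0.63 to 0.08). Ppt1, the palmitoyl-protein thioesterase gene, had means of 70.8 ± 4.22 and 70.7 ± 0.422 CPM (SD, n = 3) and the log2 fold change nearest to 0 of all members (95% interval -0.18 to 0.18).

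The 8 membrane proteins gave no call. Cd68, the macrosialin gene widely used as a marker of macrophages, was at 73.2, 93.6 and 77.1 CPM in WT 1, 2 and 3 and at 67.1, 62.8 and 62.5 CPM in KO 1, 2 and 3, the groups not overlapping (log2 fold change -0.34, SE 0.10, 95% interval -0.56 to -0.13, edgeR adjusted p = 0.161). The paired glycoproteins of the lysosomal membrane stood on opposite sides of 0. Lamp1 was at 228, 227 and 219 CPM in WT 1, 2 and 3 and at 208, 204 and 212 CPM in KO 1, 2 and 3. Lamp2 was at 175, 172 and 172 CPM in WT 1, 2 and 3 and at 192, 192 and 189 CPM in KO 1, 2 and 3. Both genes had little spread within a group and groups that did not overlap, yet the differences were small (log2 fold changes -0.11 and 0.14, edgeR adjusted p = 0.641 and 0.499).

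Cd63 was at 396, 440 and 444 CPM in WT 1, 2 and 3 and at 535, 469 and 400 CPM in KO 1, 2 and 3, with KO 3 inside the WT range and the other KO-labelled libraries above it (log2 fold change 0.13, edgeR adjusted p = 0.681). Laptm5 was at 748, 713 and 736 against 698, 695 and 718 CPM, overlapping between groups (log2 fold change -0.06, 95% interval -0.20 to 0.09, edgeR adjusted p = 0.825). Laptm4a, a relative of Laptm5, and Scarb2, the receptor that carries glucocerebrosidase to the lysosome, were at -0.08 and -0.05. Mcoln1, the lysosomal calcium channel gene, was at -0.02 with a wide interval (-0.67 to 0.62). The summed level of the group was 1887 ± 11.3 CPM over the WT-labelled libraries and 1871 ± 86.6 CPM over the KO-labelled ones (SD, n = 3).

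For 9 members every KO-labelled library was below every WT-labelled one (26.5%; 9.32% of all genes tested), and for 2, Gm2a and Lamp2, every KO-labelled library was above (5.88%; 7.48% of all genes). The 9 were Lgmn, Ctsb, Ctss, Ctsz, Tpp1, Lipa, Psap, Lamp1 and Cd68. With scaling to the total count these numbers were 17 (50%; 16.8% of all genes) and 0 (2.86% of all genes). Of the 32 members that did not pass, 20 had a 95% interval wholly within 0.5 log2 units of 0, and 6 had an interval that left out 0. Relative to its WT-labelled mean, the median member was at -0.12, -0.07 and -0.09 on the log2 scale in KO 1, 2 and 3 and between -0.02 and 0.02 in the WT-labelled libraries. Within groups Lamp2 varied least (pooled SD 0.01 on the log2 scale) and the scarce Glb1 and Gla most (0.41 and 0.40). The members' summed level was 8104 ± 140 CPM over the WT-labelled libraries and 7712 ± 173 CPM over the KO-labelled ones (SD, n = 3), and without Lgmn and Ctsb it was 7682 ± 156 and 7457 ± 143 CPM.

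**Figure D4:**
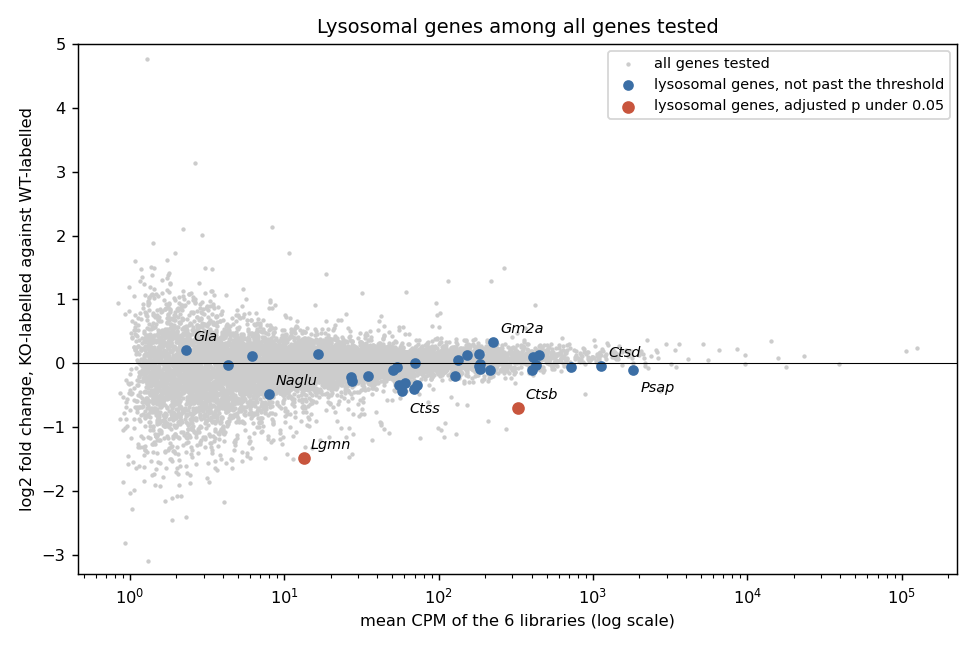
Log2 fold change (KO-labelled against WT-labelled, y axis) against mean CPM over the 6 libraries (x axis, log scale) for the 10397 genes tested (grey) and the 34 lysosomal genes. The 2 members past the threshold are red; the others are blue and lie between -0.49 and 0.33.

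Further genes of the lysosome, from lists apart from the 34 members, gave calls among the hydrolases. In the list of other lysosomal hydrolases 3 of 37 tested genes fell and none rose (median log2 fold change -0.20). These lists were chosen, like the members, with results of these data known. Ctsc, the dipeptidyl peptidase cathepsin C that activates the serine proteases of neutrophil granules, fell from 38.6, 38.5 and 40.8 CPM in WT 1, 2 and 3 to 20.6, 17.2 and 28.1 CPM in KO 1, 2 and 3 (log2 fold change -0.83, SE 0.16, edgeR adjusted p = 0.0176). Dnase2a, the acid nuclease that digests the DNA of engulfed cells (-1.13, SE 0.21, edgeR adjusted p = 0.0161), and Pla2g15, a lysosomal phospholipase (-0.73, SE 0.15, edgeR adjusted p = 0.0299), were the others. These 3 calls rested on most of the libraries. That of Ctsc held without KO 3 and ended without any other library (adjusted p 0.0589 to 0.0960), as did that of Pla2g15 (0.0652 to 0.163). That of Dnase2a ended without WT 1, WT 2, KO 1 or KO 2 (0.0526 to 0.103). Pla2g15 also lost its call with the replicate number as a block (0.0652), and an exon of Dnase2a overlaps a gene on the opposite strand.

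The machinery around these enzymes gave no call. None of 18 tested subunits of the V-ATPase, the proton pump that acidifies the lysosome, passed (median 0.04); Atp6v1g1 was at 0.22 and Atp6v1f at 0.19, with edgeR adjusted p of 0.213 and 0.380. None of 22 genes of the TFEB family and the nutrient-sensing complexes on the lysosomal surface passed (median -0.02). Mitf, a relative of Tfeb, was at 12, 11.4 and 16 CPM in WT 1, 2 and 3 and at 7.55, 6.62 and 8.48 CPM in KO 1, 2 and 3 (log2 fold change -0.79, edgeR adjusted p = 0.0924), and Lamtor1, which anchors the Ragulator complex, was at 0.20 (0.356). None of 34 genes of mannose 6-phosphate tagging and sorting passed (median -0.03), with Plekhm2 at -0.55 (edgeR adjusted p = 0.0745) and Ap3m1 at 0.37 (0.196). None of 33 other membrane proteins and transporters passed (median 0.02), with the nucleoside transporter gene Slc29a3 at -0.62 (edgeR adjusted p = 0.0866) and Laptm4b at -1.24 (0.146). None of 10 tested azurophil granule genes passed (median -0.11), with Mpo, the myeloperoxidase gene, at -0.59 (edgeR adjusted p = 0.193) and Srgn, the granule proteoglycan gene, at 0.29 (0.194). The V-ATPase and transporter medians changed sign, to -0.07 and -0.09, when only total counts set the scale. No list was tested as a set.

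Among the inhibitors of cysteine cathepsins, stefin A genes rose. In the list of cystatins and stefins 4 of 7 tested genes rose and none fell, all 4 of them stefin A genes: BC100530 (log2 fold change 1.12), Stfa1 (0.94), Stfa2l1 (0.76) and Stfa2 (1.10), with edgeR adjusted p of 1.2e-04, 0.00104, 0.0168 and 0.0242. Stfa1 was at 57.8, 74.7 and 64.3 CPM in WT 1, 2 and 3 and at 152, 115 and 112 CPM in KO 1, 2 and 3. The call of Stfa2 ended when WT 1, WT 3, KO 1 or KO 2 was left out (edgeR adjusted p 0.0574 to 0.127). That of Stfa2l1 ended when WT 1, WT 3 or KO 1 was left out (0.0639 to 0.0996). Stefin A genes are near-identical copies, and how reads were shared among them is uncertain. Cst3 (-0.02) and Cstb (0.18), the widely expressed cystatin C and stefin B genes, did not pass.

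**Figure D5:**
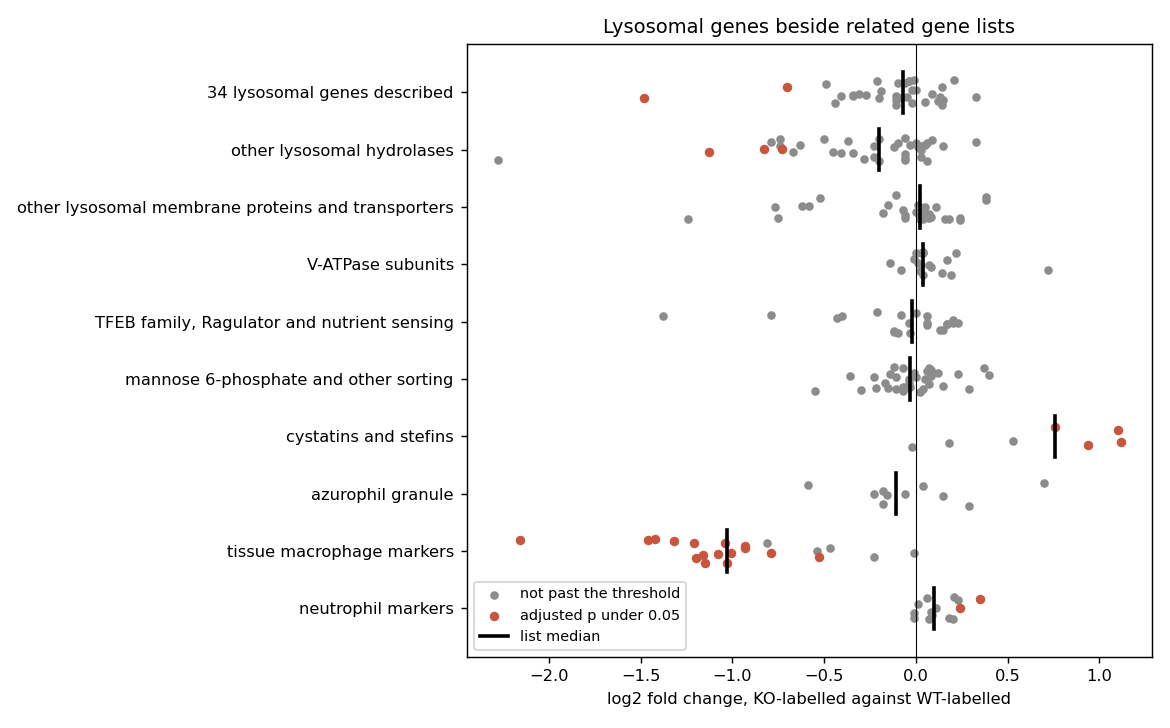
Log2 fold change (KO-labelled against WT-labelled) of every tested gene in the 34 lysosomal genes, 7 related lists and 2 marker lists. Each point is 1 gene, red where the adjusted p was under 0.05, and the black bar is the list median. The medians of the lysosomal lists lie between -0.20 and 0.04, that of the macrophage markers at -1.03 and that of the cystatins and stefins at 0.76; Cst3 is in 2 lists.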

How the data were processed

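The deposited file is a single table in which each Ensembl gene has a whole number of reads (a count) in each sample, left unscaled by the authors. The submitters' processing notes name RSEM 1.2.3, DESeq2 and the build mm10 without saying what each was used for. Aligner, annotation release, strand setting and filters were not found in those notes or the labels. Groups and replicate numbers came from the sample titles. Names, positions and exon overlaps came from GENCODE vM21 (GRCm38), which named 51596 of 51789 identifiers, and the other 193 held 0.00812% of counts. Exons of 11 members overlap another gene.

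The test was the quasi-likelihood F test of edgeR 4.0.16 (R 4.3.3; functions glmQLFit, glmQLFTest; group as the one term; TMM factors, filterByExpr with a minimum count of 10 and total of 15), with Benjamini-Hochberg adjustment over 10397 genes. One count was worth 0.103 to 0.142 CPM. Libraries of a group differed by more than sampling noise (chi-square per degree of freedom at least 4.12). The log2 CPM of KO 3 correlated at 0.969 and 0.97 with KO 1 and KO 2, and at 0.972, 0.978 and 0.97 with WT 1, 2 and 3. By chi-square per degree of freedom KO 3 was nearer KO 1 and KO 2 (5.94 and 6.25) than WT 1, 2 and 3 (7.9, 6.37 and 7.72). On the main axis of variation (first principal component, 27.9%), KO 3 (-3.91) lay between the WT-labelled libraries (-18.3 to -13.2) and KO 1 and KO 2 (23.5 and 29.2). On simulated counts of 10397 genes for this comparison the procedure called 58% of 50 genes raised 2-fold, 68% of 50 lowered to 0.5 and 5 of 10197 unchanged ones. Alternatives were DESeq2 1.42.0, limma-voom (limma 3.58.1), RLE, upper-quartile and total-count scaling, no filter or a filter of 5 CPM in 3 libraries, thresholds of 0.01 and 0.1, the replicate number as a block, and leaving out each library.

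All members were to be named, with values by library for those past the threshold, the 4 most abundant and the smallest p of each role group; further values by library were added after they were seen. Of other lists, up to 4 called genes or else the 2 with the smallest p were named; Cstb and the called markers of other cell types were added after their values were seen. Members, lists and rules were chosen with earlier results of these data known.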

Additional observations from a re-analysis of the deposited data

How the results depend on the processing

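Of the members, Lgmn kept its call under every scaling, filter, tool and left-out library tried, and Ctsb lost its call only without WT 2. No member or list reversed its direction as a called result. With total counts alone as scale, 7 members were lower (5 proteases, 1 lipid gene and 1 membrane protein), the median of the members was -0.18, 144 of all genes were lower, and calls numbered 5 among the other hydrolases and 1 each among the transporters and the sorting genes. With no filter 19659 genes were tested, and 4 members were lower and 1 higher, 2 of them lipid genes. Over those 19659 genes 173 were lower and 114 higher. Calls then numbered 5 among the other hydrolases, 1 among the TFEB genes, 1 among the sorting genes and 2 among the azurophil genes. DESeq2, run on 19659 genes, called 1 member higher (Gm2a, of the lipid group) and 63 genes higher. Upper-quartile factors and the stricter filter each called 1 lipid gene. The stricter filter left 7537 genes for testing and gave a median of -0.11. At a threshold of 0.01 all genes gave 36 lower and 10 higher, the other hydrolases 0 and the cystatins 2. At 0.1 all genes gave 126 lower and 56 higher, the other hydrolases 5, and 1 each was called among the lipid genes, transporters, TFEB genes and sorting genes. Fits without 1 library tested 10699 to 10877 genes. In them members lower ran from 1 to 3, proteases from 1 to 2, lipid genes from 0 to 1 and other hydrolases from 0 to 4. Cystatins ran from 2 to 4 and azurophil genes from 0 to 1. All genes ran from 35 to 68 lower and from 11 to 29 higher, and the median of the members from -0.11 to -0.04. TMM factors ranged over 1.015 to 1.061 under the WT label, but only over 0.9492 to 0.9798 under the KO label. Scaling to the total count leaves these factors out, and the median of all genes went from 0.01 to -0.10. The choice of scaling is therefore tied to the labels. Why the factors differ by label was not tested, nor was the cause of the other shifts.

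No pairing by replicate number was seen. Deviations from the group means correlated at -0.03, -0.01 and -0.13 between libraries of the same number, and at -0.17 to 0.18 between those of different numbers. With 3 libraries a group these values cannot exclude a pairing. With the number as a block 92 genes were called, 65 lower and 27 higher, with Lgmn and Ctsb again the members called; Pla2g15 lost its call. On simulated counts with 3 libraries a group, the test found 46% of 1.5-fold increases, 58% of 2-fold increases and 68% of decreases to 0.5. The changed genes were drawn at random from all genes tested, so these shares do not measure the members themselves. A member that did not pass may still differ by an amount that its interval allows.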
